A study of Mus musculus with 20 samples.

Results

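The genes described here are 10 genes of the integrated stress response and of the brakes on mTOR complex 1: Atf4, Ddit3, Trib3, Chac1, Asns, Ddit4, Sesn1, Sesn2, Sesn3 and Txnip. They were chosen by gene symbol from the 22068 genes of the deposited count table, with no threshold on any value, but they were proposed with earlier results of these data known. Their levels over the 5 groups are therefore a description, and a count of changed members is read only beside the share of all genes that changed. All 10 symbols were in the table. Of these, 9 passed the filter on low counts. Chac1 failed it, and Asns passed it with few reads outside the regulatory T cells.

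In the integrated stress response, kinases that sense uncharged tRNA, misfolded protein, viral RNA or heme loss phosphorylate the initiation factor eIF2alpha. General translation then falls while the mRNA of the transcription factor ATF4 is translated more, so that the Atf4 mRNA level is not a measure of ATF4 protein. ATF4 drives genes for amino acid supply, such as Asns, and feedback or death genes such as Ddit3 (the protein CHOP), Trib3 and Chac1. A second set of proteins restrains mTOR complex 1, the kinase that couples growth of a T cell to nutrients: the sestrins act through the GATOR complexes at the lysosome, and REDD1, the product of Ddit4, acts through the TSC complex. Txnip encodes an alpha-arrestin that binds thioredoxin and lowers glucose uptake. Naive T cells leaving quiescence are known to raise mTOR signalling and amino acid uptake.

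The cells were CD4 T cells sorted from lymph node and spleen of mice 8 to 12 weeks old, on the C57BL/6 strain and with a Foxp3-GFP reporter. Naive cells were CD44-low and negative for the reporter, and were split into the 15% with the lowest surface CD5 (CD5lo) and the 15% with the highest (CD5hi), CD5 being a marker of how strongly a T cell responds to self peptides. They were lysed directly (fresh) or first kept for 22 hours in medium holding IL-7 (10 ng/mL), a survival cytokine (rested), a step meant to take away contact with self peptide-MHC. Regulatory T cells (Treg) were positive for the reporter, with no gate on CD5 or CD44 named, and were lysed directly. Each of the 5 groups has 4 libraries, called biological replicates in the design text. The labels state that male and female mice were pooled, and their cell type field names every sample CD5lo, so groups were taken from the titles.

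Total counts were 38211406 to 64477566 per library. Cd5 itself was 148 ± 9.83 CPM in fresh CD5lo and 982 ± 61.3 CPM in fresh CD5hi cells (mean ± SD, n = 4 per group, as for all levels here, where CPM is the usual read count relative to library size, after TMM scaling), and 5 Treg markers summed to 57.6 to 60.3 CPM in fresh CD5lo and 2940 to 3230 CPM in Treg libraries. All 8 fresh naive libraries held reads of Y-linked genes without Xist. Of the rested and Treg groups only replicate 3 of each did, and the other 9 libraries held Xist, so sex cannot be told apart from resting or from Treg identity outside those libraries. Summed markers of other cells moved with resting: 8 macrophage and monocyte markers from 17.5 to 24.6 CPM in fresh naive libraries to 5.49 to 9.07 CPM in rested ones, with C1qa at 0 in rested CD5lo and C1qb at 0 in rested CD5hi, and 5 erythroid markers from 22.3 to 75.5 CPM to 0.330 to 12.1 CPM. Summed Treg markers were 57.6 to 84.9 CPM in fresh naive and 278 to 317 CPM in rested libraries. Most of that rise lay in markers of the list other than Foxp3. Mean Foxp3 was 22.3 CPM in fresh and 23.3 CPM in rested CD5lo cells. In CD5hi cells it was 24.1 CPM when fresh and 28.6 CPM when rested, beside 722 CPM in Treg cells. The part of these markers in the results was not tested. In bulk RNA, fewer cells expressing a gene and less RNA per cell cannot be told apart.

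Resting gave the widest changes among the well-detected members, and it moved genes of the same pathway in opposite directions. Trib3 rose, Sesn1 and Sesn2 rose, Atf4 rose slightly, and Ddit4, Ddit3 and Sesn3 fell in both CD5 groups, while Asns fell in CD5lo cells and was not called in CD5hi cells. In CD5lo cells 4 of the 9 tested members were called higher and 4 lower at a Benjamini-Hochberg adjusted p under 0.05 in edgeR's quasi-likelihood test, beside 26.9% of all 13309 tested genes called higher and 27.3% lower (54.3% in all). In CD5hi cells 4 were called higher and 3 lower, beside 26.2% of all genes higher and 26.2% lower (52.4% in all). The members' median log2 fold change was -0.08 in CD5lo cells and 0.00 in CD5hi cells, beside -0.01 and 0.00 over all tested genes. Without TMM scaling, that is by library totals alone, the median of all genes moved from -0.014 to -0.103 in CD5lo cells, and the calls over all genes went from 3582 higher and 3639 lower to 2715 and 4613.

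Trib3 encodes a pseudokinase that binds ATF4 and CHOP and restrains AKT. Its level was 4.70, 5.97, 5.44 and 6.28 CPM in the fresh CD5lo libraries and 3.34, 3.25, 3.53 and 3.61 CPM in the fresh CD5hi libraries. After resting it was 45.3, 42.4, 49.4 and 47.0 CPM in CD5lo cells and 28.8, 32.0, 38.2 and 34.8 CPM in CD5hi cells. In Treg libraries it was 3.61, 4.17, 3.81 and 3.94 CPM. No rested library overlapped any fresh or Treg library, and the 2 rested groups did not overlap each other. Resting raised Trib3 8.23-fold in CD5lo cells (log2 fold change 3.04 ± 0.09 SE, adjusted p = 2.3e-16 by edgeR) and 9.73-fold in CD5hi cells (3.28 ± 0.10, adjusted p = 1.5e-16). With only the libraries that hold Y-linked reads, which leaves replicate 3 alone in each rested group, the changes were 3.16 and 3.49. Trib3 was also lower in CD5hi than in CD5lo cells, by 1.63-fold when fresh (-0.70 ± 0.10, adjusted p = 2.1e-05) and by 1.38-fold when rested (-0.46 ± 0.08, adjusted p = 8.9e-04), in 4 of 4 replicate numbers each time. Treg cells were below fresh CD5lo cells (-0.53 ± 0.10, adjusted p = 7.9e-05). Against fresh CD5hi cells the Treg difference was 0.17 ± 0.10 (adjusted p = 0.16 by edgeR), which was called with library totals as the only scaling (0.26, adjusted p = 0.027, alternatives 0.027 to 0.44).

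The stretch of the Trib3 promoter nearest the start is shown because Trib3 and Ddit4 had the largest opposed changes on resting among the well-detected members. The sequences come from RefSeq for the build GRCm38.p6 and were matched by symbol, while the counts were made on mm9. The Trib3 stretch, the last 150 bases before the start, is chr2:152344061-152344210, minus strand, and the Ddit4 stretch is chr10:59951771-59951920, minus strand.
Trib3: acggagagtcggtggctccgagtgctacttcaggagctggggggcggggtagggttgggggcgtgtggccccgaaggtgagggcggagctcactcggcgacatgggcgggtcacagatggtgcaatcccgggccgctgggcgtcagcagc
Ddit4: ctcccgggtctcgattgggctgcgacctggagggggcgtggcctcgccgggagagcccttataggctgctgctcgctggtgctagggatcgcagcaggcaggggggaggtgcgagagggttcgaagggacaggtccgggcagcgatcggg
Both are GC-rich, at 70.0% each. The 250 bases before the start were searched on both strands for TGATGNAA (the C/EBP-ATF element read by ATF4 dimers), CACGTG (an E-box, the same on both strands), a pair of such E-boxes spaced as in a carbohydrate response element and TGTTTAC (a FOXO element). Neither gene held any of these letters in that window, which says nothing of sites elsewhere or of sites with other letters. Of 32817 promoter windows of the same length, 3.45% held TGATGNAA, 6.02% held CACGTG, 0 held the paired E-box and 3.16% held TGTTTAC.

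Ddit4, whose product REDD1 inhibits mTOR complex 1, moved against Trib3. It was 112, 152, 168 and 215 CPM in fresh CD5lo and 168, 220, 261 and 302 CPM in fresh CD5hi libraries. After resting it was 22.7, 19.7, 22.2 and 20.8 CPM in CD5lo and 30.3, 28.0, 30.6 and 21.5 CPM in CD5hi cells. Every rested library was below every fresh and Treg library. The fall was 7.56-fold in CD5lo cells (log2 fold change -2.92 ± 0.19, adjusted p = 4.2e-11 by edgeR) and 8.61-fold in CD5hi cells (-3.11 ± 0.19, adjusted p = 1.6e-11). In the libraries with Y-linked reads alone, which leaves replicate 3 alone in each rested group, the log2 fold changes were -2.84 and -2.94.

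Fresh Ddit4 levels spread widely over replicate numbers in the same order in both CD5 groups, and CD5hi exceeded CD5lo within each number. The log2 ratios of CD5hi to CD5lo were 0.59, 0.54, 0.64 and 0.49 for numbers 1 to 4. Across groups the ranges overlapped, and the difference was 0.56 ± 0.17 (adjusted p = 0.039 by edgeR). That call was lost without fresh CD5lo replicate 1 (0.42, adjusted p = 0.15), 2 (0.53, 0.10) or 3 (0.58, 0.069), without fresh CD5hi replicate 2 (0.60, 0.056), 3 (0.51, 0.11) or 4 (0.42, 0.18), and with only the groups compared (0.56, 0.052), within a range of 1.5e-04 to 0.18 over the alternatives. The low end of that range came with replicate number as a block within states, which compares within numbers (0.56, adjusted p = 1.5e-04). When rested, the difference of CD5hi from CD5lo was 0.37 ± 0.18 (adjusted p = 0.29, alternatives 0.024 to 0.73) and the ratios by number were 0.41, 0.50, 0.46 and 0.05. In Treg cells Ddit4 was 179, 186, 158 and 243 CPM, between the fresh groups and overlapping both. The Treg differences were 0.25 ± 0.17 against CD5lo (adjusted p = 0.24) and -0.31 ± 0.17 against CD5hi (adjusted p = 0.14). Each was called when 1 library was left out: the first without fresh CD5lo replicate 4 (0.43, adjusted p = 0.039, alternatives 0.039 to 0.98) and the second without fresh CD5hi replicate 1 (-0.45, adjusted p = 0.032, alternatives 0.032 to 0.43).

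**Figure D1:**
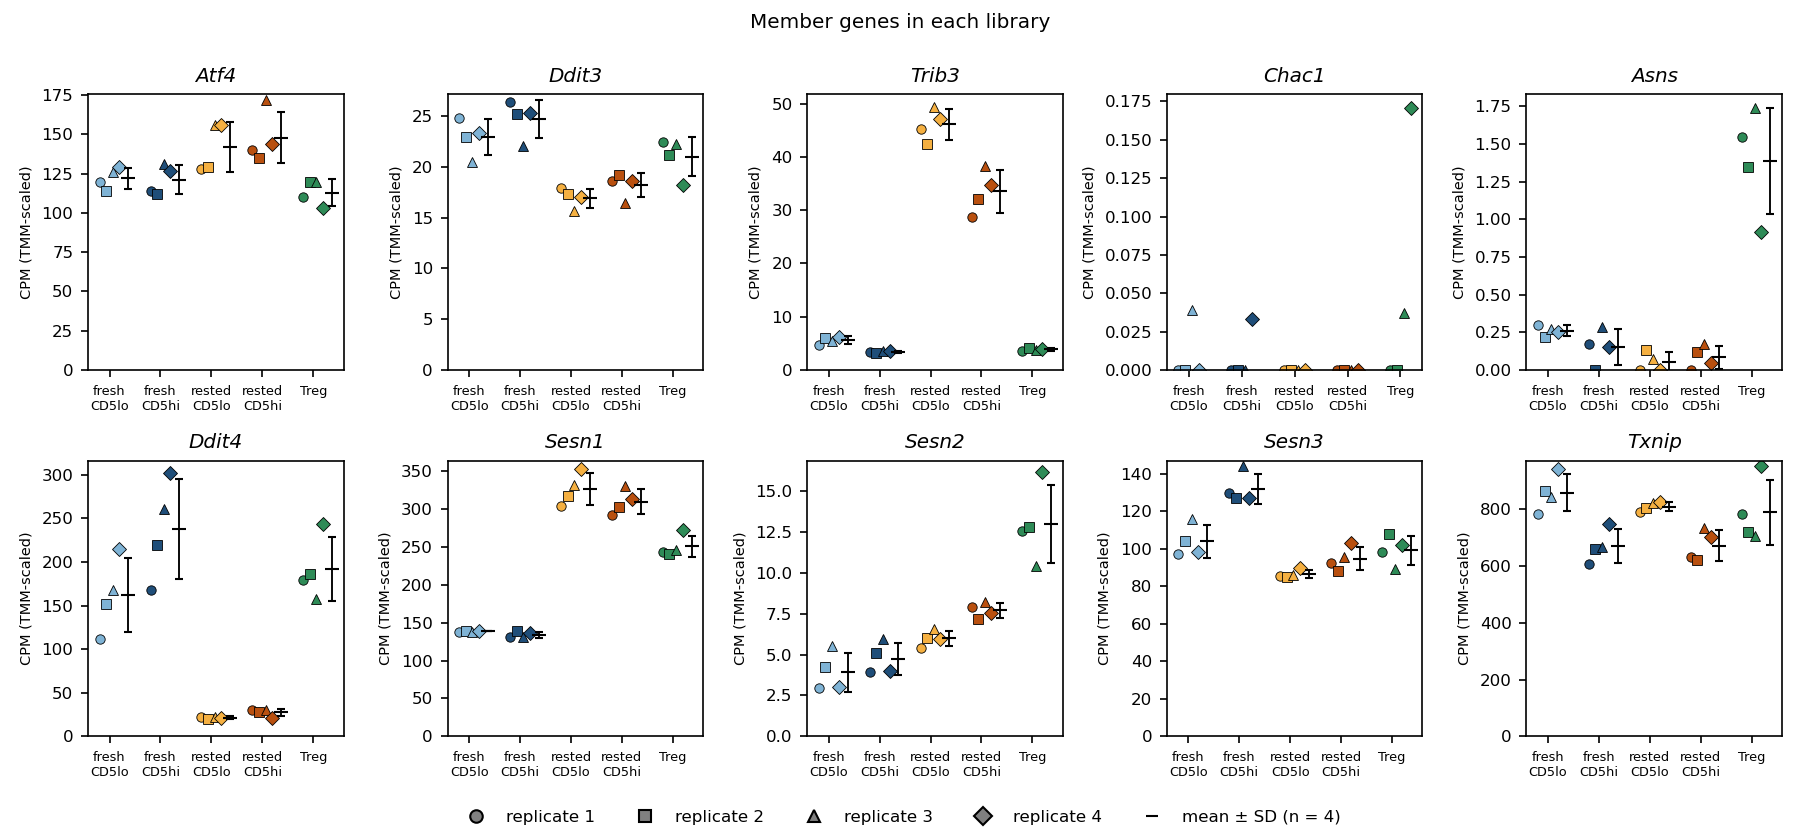
TMM-scaled CPM (linear axes from 0, 1 panel per gene, each with its own scale) in the 20 libraries of the 5 groups; symbols mark the replicate number and bars the mean ± SD (n = 4), left out for Chac1. Trib3 stands at 28.8 to 49.4 CPM in rested libraries and at 3.25 to 6.28 CPM elsewhere, and Ddit4 at 19.7 to 30.6 CPM in rested libraries and at 112 to 302 CPM elsewhere.

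The 3 sestrins, paralogs whose products hold mTOR complex 1 down when amino acids are short, did not share a pattern. Sesn1, a gene known as a target of p53 and of FOXO factors, was 138, 139, 138 and 139 CPM in fresh CD5lo libraries and 131, 139, 131 and 136 CPM in fresh CD5hi libraries. It was 304, 318, 332 and 353 CPM in rested CD5lo, 293, 303, 331 and 313 CPM in rested CD5hi, and 244, 241, 246 and 272 CPM in Treg libraries. The groups thus fell into 3 levels without overlap: fresh naive, Treg and rested naive. Resting raised Sesn1 2.36-fold in CD5lo cells (1.24 ± 0.05, adjusted p = 2.0e-14 by edgeR) and by 1.21 ± 0.05 in CD5hi cells (adjusted p = 2.7e-14). Treg cells exceeded fresh CD5lo by 0.85 ± 0.05 (adjusted p = 2.6e-12) and fresh CD5hi by 0.90 ± 0.05 (adjusted p = 1.3e-12). The CD5hi and CD5lo cells differed by -0.05 ± 0.05 when fresh (adjusted p = 0.70) and -0.08 ± 0.05 when rested (adjusted p = 0.47).

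Sesn2, whose product binds leucine and which is a known ATF4 target, was low in all groups. It was 2.93, 4.24, 5.50 and 3.03 CPM in fresh CD5lo, 3.93, 5.12, 5.94 and 3.98 CPM in fresh CD5hi, 5.42, 6.05, 6.56 and 5.98 CPM in rested CD5lo, 7.90, 7.16, 8.24 and 7.55 CPM in rested CD5hi, and 12.6, 12.8, 10.4 and 16.2 CPM in Treg libraries. Treg libraries were above all naive ones, and rested CD5hi above rested CD5lo. Treg exceeded fresh CD5lo 3.32-fold (1.73 ± 0.18, adjusted p = 2.4e-08 by edgeR) and fresh CD5hi by 1.46 ± 0.17 (adjusted p = 3.3e-07). Resting raised Sesn2 by 0.61 ± 0.18 in CD5lo cells (adjusted p = 0.006) and 0.70 ± 0.17 in CD5hi cells (adjusted p = 0.0021). The CD5lo call was lost with rested replicates 1 and 2 only (0.54, adjusted p = 0.052, alternatives 4.2e-04 to 0.052). CD5hi cells were above CD5lo cells in 4 of 4 replicate numbers in each state, by 0.27 ± 0.18 when fresh (adjusted p = 0.44) and 0.36 ± 0.17 when rested (adjusted p = 0.26), neither of them called. With replicate number as a block within states, only the rested difference was called (0.36, adjusted p = 0.043), and the fresh one was not (0.29, 0.12).

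Sesn3, known as a FOXO target, was highest in fresh CD5hi cells. It was 97.3, 104, 116 and 98.3 CPM in fresh CD5lo and 130, 127, 144 and 127 CPM in fresh CD5hi libraries, without overlap. In rested cells it was 85.7, 85.1, 86.0 and 89.5 CPM (CD5lo) and 92.2, 88.4, 95.7 and 103 CPM (CD5hi), and in Treg cells 98.2, 108, 89.1 and 102 CPM. Fresh CD5hi cells exceeded CD5lo by 0.35 ± 0.06 (adjusted p = 5.7e-04 by edgeR), and rested CD5hi cells by 0.13 ± 0.06 (adjusted p = 0.29). Resting lowered Sesn3 by -0.27 ± 0.06 in CD5lo cells (adjusted p = 0.0016) and -0.48 ± 0.06 in CD5hi cells (adjusted p = 2.3e-06), the reverse of Sesn1. The difference between these changes was -0.22 ± 0.09, which had an unadjusted p of 0.026 and an adjusted p of 0.64. Treg cells were below fresh CD5hi (-0.42 ± 0.06, adjusted p = 1.0e-05) and differed from fresh CD5lo by -0.07 ± 0.06 (adjusted p = 0.37).

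**Figure D2:**
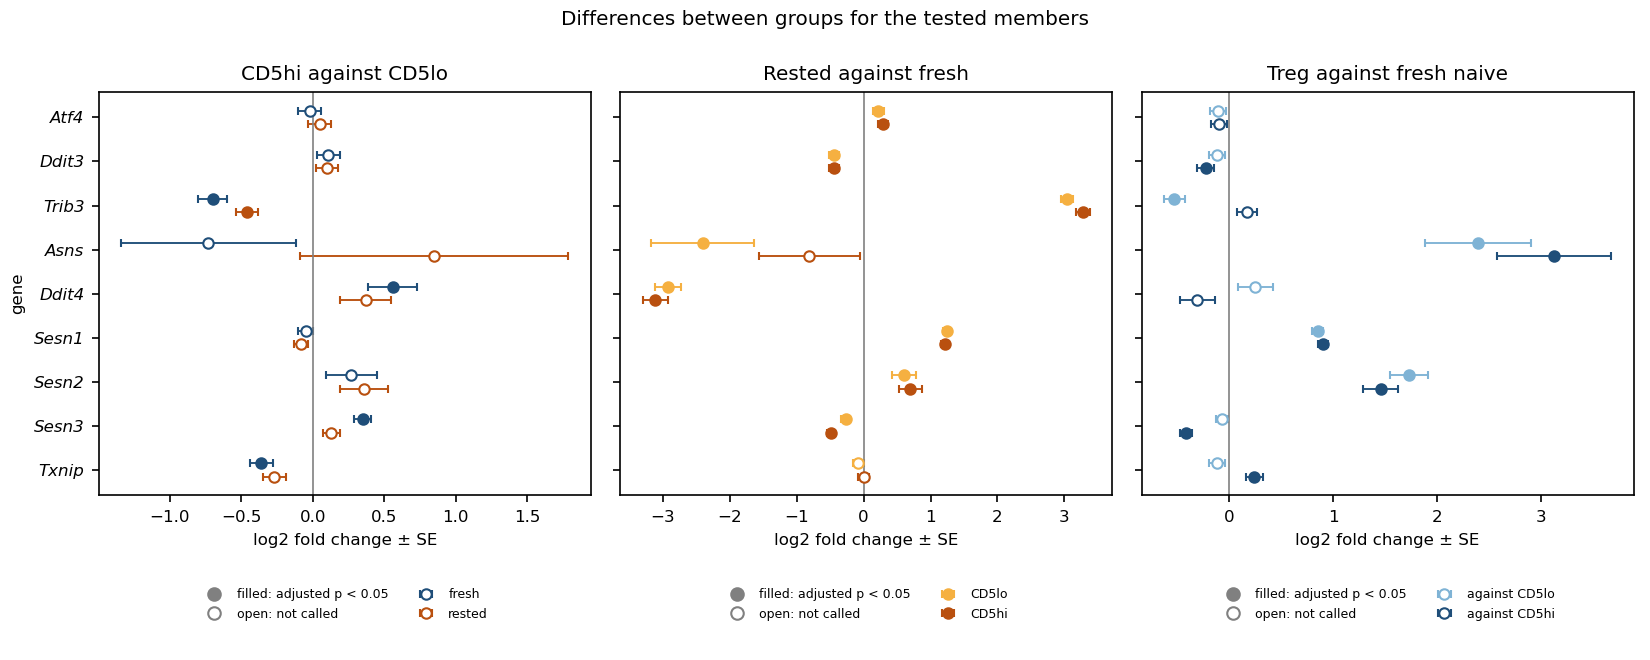
Log2 fold change ± SE from edgeR (horizontal axis, each panel with its own scale) of the 9 tested members for CD5hi against CD5lo, rested against fresh, and Treg against each fresh naive group; filled points were called at an adjusted p under 0.05. Trib3 (3.04 and 3.28) and Ddit4 (-2.92 and -3.11) lie at opposite ends of the middle panel, and Asns has the widest errors throughout. The Treg points of Asns are a description, since its counts in naive libraries were few.

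Atf4 and Ddit3, the transcription factors, moved less on resting than Trib3 and Ddit4, though Ddit3 fell without overlap in both CD5 groups. Atf4 was 120, 114, 126 and 129 CPM in fresh CD5lo, 114, 112, 131 and 127 CPM in fresh CD5hi, 128, 129, 156 and 156 CPM in rested CD5lo, 140, 135, 172 and 144 CPM in rested CD5hi, and 110, 120, 120 and 103 CPM in Treg libraries. Its group means spanned 1.31-fold, and every pair of neighbours in the order of means overlapped. Resting raised Atf4 by 0.29 ± 0.08 in CD5hi cells (adjusted p = 0.006 by edgeR) and by 0.22 ± 0.08 in CD5lo cells (adjusted p = 0.030). The CD5lo call was lost with library totals as the only scaling (0.13, adjusted p = 0.15), with rested replicates 1 and 2 only (0.06, 0.49), and without fresh CD5lo replicate 1 (0.21, 0.075) or 2 (0.19, 0.10) or rested CD5lo replicate 3 (0.17, 0.13) or 4 (0.17, 0.13), within a range of 0.001 to 0.49. The CD5hi and CD5lo cells differed by -0.02 ± 0.08 fresh (adjusted p = 0.96) and 0.05 ± 0.08 rested (adjusted p = 0.83). Treg cells differed by -0.11 ± 0.08 from fresh CD5lo (adjusted p = 0.25) and by -0.10 ± 0.08 from fresh CD5hi (adjusted p = 0.34).

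Ddit3 was 24.8, 22.9, 20.5 and 23.3 CPM in fresh CD5lo and 26.4, 25.2, 22.0 and 25.3 CPM in fresh CD5hi libraries. After resting it was 17.9, 17.3, 15.6 and 17.0 CPM in CD5lo and 18.6, 19.2, 16.4 and 18.6 CPM in CD5hi cells, all below every fresh naive library. In Treg libraries it was 22.4, 21.2, 22.2 and 18.2 CPM. The change on resting was -0.44 ± 0.08 in both CD5 groups (adjusted p = 8.5e-05 in CD5lo and 7.8e-05 in CD5hi by edgeR). CD5hi cells were above CD5lo by 0.11 ± 0.08 fresh (adjusted p = 0.49) and 0.10 ± 0.08 rested (adjusted p = 0.55), not called. The Treg difference was -0.12 ± 0.08 against CD5lo (adjusted p = 0.18) and -0.23 ± 0.08 against CD5hi (adjusted p = 0.015). The last call was lost with library totals as the only scaling (-0.15, adjusted p = 0.15), and without fresh CD5hi replicate 1 (-0.20, 0.053) or Treg replicate 4 (-0.15, 0.099). The Y-linked libraries alone, with replicate 3 as the only Treg library, gave -0.14. In the RefSeq annotation Ddit3 overlaps Mars1 (Mars in the table) and Mbd6, and without a stated strand setting reads from overlapping genes cannot be told apart. Mars was also lower after resting (-0.50 ± 0.07, adjusted p = 5.2e-06 in CD5lo cells), and Mbd6 was not called (-0.19 ± 0.11, adjusted p = 0.16).

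The 2 members with the fewest counts, Asns and Chac1, were the 2 whose promoter windows held TGATGNAA. Asns makes asparagine from aspartate, and Chac1 degrades glutathione. The last 150 bases before the start of Asns (chr6:7693210-7693359, minus strand) and 250 before that of Chac1 (chr2:119350992-119351241, plus strand, RefSeq, GRCm38.p6) are shown with the match in capitals. The Chac1 match is on the opposite strand, so it appears as its reverse complement.
Asns: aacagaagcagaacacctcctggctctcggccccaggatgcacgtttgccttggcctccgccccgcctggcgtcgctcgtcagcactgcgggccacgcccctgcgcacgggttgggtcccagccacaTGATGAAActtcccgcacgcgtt
Chac1: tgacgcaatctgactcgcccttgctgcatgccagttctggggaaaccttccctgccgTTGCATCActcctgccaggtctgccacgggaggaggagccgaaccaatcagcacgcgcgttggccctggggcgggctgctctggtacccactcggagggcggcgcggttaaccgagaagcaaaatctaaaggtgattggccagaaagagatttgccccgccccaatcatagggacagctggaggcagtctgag
The match begins 23 bases before the start in Asns and 193 bases before it in Chac1. The same 8 letters were in 3.45% of all promoter windows, and in 2 of the 11 windows of the 10 members. A match is a description of letters, not evidence of binding.

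Asns counts were 17, 13, 14 and 13 reads in fresh CD5lo, 8, 0, 16 and 9 in fresh CD5hi, 0, 6, 3 and 0 in rested CD5lo, 0, 6, 8 and 2 in rested CD5hi, and 91, 64, 93 and 43 in Treg libraries. As counts over the summed totals of 4 libraries, this was 0.262 CPM in fresh CD5lo (exact 95% Poisson interval 0.199 to 0.340), 0.161 in fresh CD5hi (0.111 to 0.226), 0.0440 after resting in CD5lo (0.0201 to 0.0835) and 0.0868 in CD5hi cells (0.0496 to 0.141), and 1.52 in Treg cells (1.35 to 1.70). All Treg libraries were above all naive ones. The intervals cover counting error only and are too narrow, because 62.3 to 66.2% of small counts per library were even, as when both mates of a fragment are counted. The Treg counts and the fresh CD5lo counts each passed the filter on low counts by themselves. Because naive counts were this few, the Asns difference in Treg cells is given as a description: the fitted log2 fold change was 2.40 against CD5lo and 3.13 against CD5hi. Summed B cell markers, 5 of 5 detected, were 31.3 to 33.6 CPM in Treg and 4.11 to 5.98 CPM in fresh naive libraries, and their part in the Asns difference was not tested. On resting, the Asns difference was -2.40 ± 0.77 in CD5lo cells (adjusted p = 0.012 by edgeR) and -0.81 ± 0.75 in CD5hi cells (adjusted p = 0.38). The CD5lo call was lost with rested replicates 1 and 2 only (-1.97, adjusted p = 0.079). The Y-linked libraries alone, with replicate 3 as the only rested CD5lo library, gave -1.77. CD5hi against CD5lo was -0.73 ± 0.61 fresh (adjusted p = 0.59) and 0.85 ± 0.94 rested (adjusted p = 0.73), errors too wide to place either.

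Chac1 was close to undetected. It had 2 reads in fresh CD5lo (replicate 3), 2 in fresh CD5hi (replicate 4), 0 in both rested groups and 10 in Treg cells (2 in replicate 3 and 8 in replicate 4). Taking 3 counts over the group as the limit, a sum of 0 allows up to 0.0147 CPM in the rested CD5lo group and up to 0.0163 CPM in the rested CD5hi group. The upper ends of the exact 95% Poisson intervals were 0.018 and 0.020 CPM, and both kinds of limit cover counting error only and are too low if both mates were counted. The Treg value rests on replicate 4, and no difference was detectable at this depth.

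Txnip was 784, 865, 841 and 941 CPM in fresh CD5lo and 606, 658, 666 and 748 CPM in fresh CD5hi libraries. In rested cells it was 788, 803, 821 and 825 CPM (CD5lo) and 633, 619, 733 and 701 CPM (CD5hi). In each state every CD5lo library was above every CD5hi library. The difference of CD5hi from CD5lo was -0.36 ± 0.08 when fresh (adjusted p = 0.0061 by edgeR) and -0.27 ± 0.08 when rested (adjusted p = 0.055). The rested difference was called with replicate numbers as a block within states (-0.27, adjusted p = 0.014) or across groups (-0.27, 0.011), by DESeq2 (-0.27, 0.029) and without rested CD5hi replicate 3 (-0.32, 0.024), within 0.011 to 0.50. Resting changed Txnip by -0.08 ± 0.08 in CD5lo cells (adjusted p = 0.42) and 0.00 ± 0.08 in CD5hi cells (adjusted p = 0.98). Treg libraries, at 782, 718, 704 and 953 CPM, overlapped all other groups. Against fresh CD5hi the Treg difference was 0.24 ± 0.08 (adjusted p = 0.022), a call lost without fresh CD5hi replicate 1 (0.19, 0.086) or Treg replicate 4 (0.15, 0.10). Against fresh CD5lo it was -0.12 ± 0.08 (adjusted p = 0.24), called without Treg replicate 4 (-0.20, 0.031), within 0.031 to 0.88. The Y-linked libraries alone, with replicate 3 as the only Treg library, gave 0.09 against CD5hi and -0.27 against CD5lo. The gene overlaps the noncoding gene Gm15441 in the RefSeq annotation.

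Txnip was the only member whose 250-base window held the FOXO element TGTTTAC, and its window is shown for that match. The last 150 bases before the start are chr3:96557807-96557956, plus strand (RefSeq, GRCm38.p6). The match, in capitals, is on the opposite strand and begins 121 bases before the start.
Txnip: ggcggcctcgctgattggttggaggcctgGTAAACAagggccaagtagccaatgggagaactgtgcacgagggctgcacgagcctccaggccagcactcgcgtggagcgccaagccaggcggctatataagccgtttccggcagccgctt
Txnip is known as a target of the glucose-sensing factor MondoA. Neither the exact E-box letters nor the exact pair was in this window. The exact pair was in 0 of 32817 windows, so its absence says nothing of sites with other letters. The stretch does hold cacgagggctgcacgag, with cacgag in place of each CACGTG at the same spacing, which the search could not match. Sesn3 and Sesn1 held none of the searched letters in their windows.

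The CD5 groups were compared within each state. When fresh, CD5hi cells had more Sesn3 and Ddit4 and less Trib3 and Txnip than CD5lo cells. Of the 9 tested members 2 were called higher and 2 lower, beside 6.86% and 4.59% of all tested genes (11.5% in all), with a median of -0.02 for the members and -0.01 for all genes. Summed CD8 T cell markers were 28.9 to 35.0 CPM in fresh CD5lo and 7.98 to 8.92 CPM in fresh CD5hi libraries. Summed NK cell markers moved the other way, from 0.822 to 1.56 CPM in fresh CD5lo to 4.73 to 6.47 CPM in fresh CD5hi libraries, where the defining markers Ncr1 and Klre1 were at 0. The part of these markers in the CD5 differences was not tested. When rested, only Trib3 was called, lower in CD5hi cells, beside 4.74% of all genes called higher and 3.46% lower (8.20% in all), and the medians were 0.10 and 0.00. None was called higher by edgeR or by DESeq2, and 1 (Sesn2) had an unadjusted p under 0.05 in that direction. By library totals alone the calls over all genes in this comparison went from 631 higher and 461 lower to 825 and 311. With replicate number as a block within states, 4 members were called in the rested comparison: Trib3 (-0.47, adjusted p = 1.8e-05), Txnip (-0.27, 0.014), Ddit4 (0.36, 0.024) and Sesn2 (0.36, 0.043). Under that block the calls over all genes went from 1092 to 1961 when rested and from 1524 to 2396 when fresh, where the same number of members, 4, was called.

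No member's CD5 difference was shown to shift on resting. The interaction, which subtracts the fresh log2 ratio of CD5hi to CD5lo from the rested one, was called for 0 of 9 members by edgeR and by DESeq2, and 1 (Sesn3) had an unadjusted p under 0.05. Among all genes 0.451% were called (0.113% higher and 0.338% lower), 60 genes in edgeR, 247 with the block within states and 130 by DESeq2. The interaction for Trib3 was 0.24 ± 0.13 (adjusted p = 0.88), that for Ddit4 -0.19 ± 0.25 and that for Asns 1.59 ± 1.12 (both with an adjusted p of 1).

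**Figure D3:**
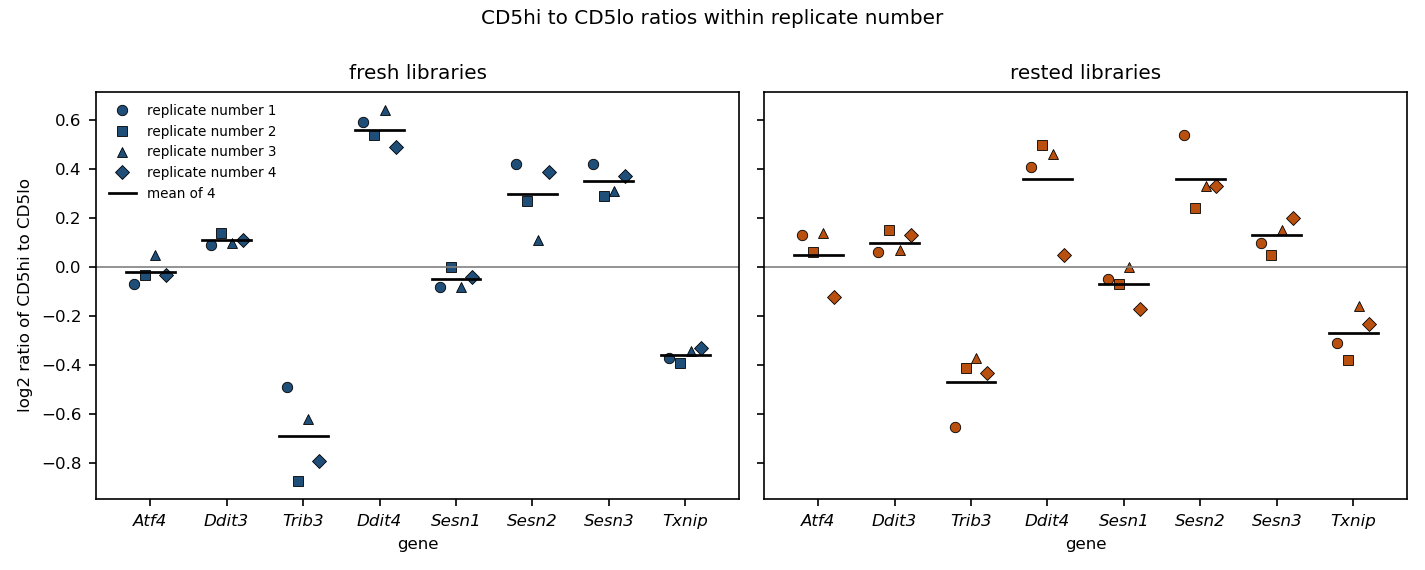
Log2 ratio of CD5hi to CD5lo CPM within each replicate number (vertical axis, prior count added before the logarithm) for 8 members, fresh at left and rested at right; symbols mark the number and lines the mean of 4. Fresh Ddit4 ratios lie between 0.49 and 0.64 although the levels overlap across groups, and rested Ddit4 ratios between 0.05 and 0.50.

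Treg cells had more Sesn1 and Sesn2 than either fresh naive group. Against CD5lo, 3 of 9 members were called higher and 1 (Trib3) lower, beside 29.2% and 29.4% of all genes (58.5% in all). Against CD5hi, 4 were called higher and 2 (Ddit3 and Sesn3) lower, beside 27.5% and 26.6% (54.2% in all). Both counts of higher members include Asns, which had few reads in naive libraries, and nothing is read from them. The comparisons share the Treg libraries. By library totals alone the calls over all genes went from 3881 higher and 3910 lower to 4790 and 2709 against CD5lo, and from 3663 and 3545 to 4487 and 2477 against CD5hi. Sesn1 and Sesn2 rose both with resting and in Treg cells, whereas the Treg levels of Trib3 and Ddit4 lay within the range of the fresh naive libraries.

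The neighbouring steps of these pathways were read from gene lists chosen with earlier results of these data known, so their counts are a description. They are to be read beside the shares of all tested genes called in the same comparison: 26.9% higher and 27.3% lower on resting in CD5lo cells, 26.2% each way in CD5hi cells, and 29.2% higher and 29.4% lower in Treg against fresh CD5lo cells. Upstream of ATF4, the list of eIF2alpha kinases, phosphatase subunits and eIF2B had 14 tested genes. On resting 2 rose and 2 fell in CD5lo cells, and Eif2ak2, the kinase PKR that senses double-stranded RNA, fell from 39.5 to 21.6 CPM (-0.87 ± 0.08, adjusted p = 2.2e-08 by edgeR). By library totals alone 0 rose and 8 fell there. In Treg cells Eif2ak2 was higher, at 79.5 CPM (1.01 ± 0.08 against CD5lo, adjusted p = 6.6e-10), while 8 of the 14 genes were lower and 2 higher. Eif2ak3, the endoplasmic reticulum kinase PERK, was lower in CD5hi than in CD5lo cells when fresh (-0.38 ± 0.06, adjusted p = 2.0e-04) and when rested (-0.34 ± 0.06, adjusted p = 0.0011). Ppp1r15a, the stress-induced phosphatase subunit GADD34 and itself an ATF4 pathway target, fell on resting in CD5lo cells from 54.5 to 41.6 CPM (-0.39 ± 0.13, adjusted p = 0.013). In CD5hi cells it was 39.5 CPM fresh and 35.1 CPM rested, which was not called (-0.17 ± 0.13, adjusted p = 0.27). Its fresh level was lower in CD5hi than in CD5lo cells (-0.46 ± 0.13, adjusted p = 0.017).

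Among partners and relatives of the members, 9 of 12 were tested. On resting 2 rose and 0 fell in CD5lo cells, with 1 lower at an unadjusted p under 0.05 and 0 by DESeq2, and 2 rose and 3 fell by library totals alone. Trib2, a paralog of Trib3, also rose on resting, from 389 to 979 CPM in CD5lo cells (1.33 ± 0.06, adjusted p = 2.9e-13) and by 1.28 ± 0.06 in CD5hi cells (adjusted p = 5.5e-13). Unlike Trib3, it was higher in CD5hi cells (0.32 ± 0.06 fresh, adjusted p = 0.0011). Trib1, the third tribbles gene, was 1.82 CPM in fresh CD5lo, 1.52 in rested CD5lo and 35.7 in Treg cells (4.30 ± 0.11 against CD5lo, adjusted p = 4.3e-18). The 3 tribbles paralogs therefore had 3 different orders of groups. Cebpg, an ATF4 partner, rose on resting from 48.7 to 62.5 CPM in CD5lo cells (0.36 ± 0.08, adjusted p = 0.0012).

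Downstream of ATF4, the list of amino acid synthesis and transport had 19 tested genes. It also holds Eif4ebp1, which is neither and is counted again among the outputs of the mTOR pathway below. On resting 5 genes of the list rose and 8 fell in CD5lo cells (26.9% and 27.3% of all genes). In CD5hi cells 7 rose and 5 fell (26.2% each way), with no more read from these counts. Mthfd2, a mitochondrial one-carbon enzyme, fell from 52.7 to 30.0 CPM in CD5hi cells (-0.82 ± 0.07, adjusted p = 1.6e-09). Eif4ebp1, the translation repressor 4E-BP1, rose from 3.37 to 6.14 CPM in CD5lo cells (0.87 ± 0.17, adjusted p = 2.0e-04), and Slc38a2, a glutamine and alanine transporter, rose in CD5hi cells from 241 to 410 CPM (0.77 ± 0.10, adjusted p = 1.3e-06). Of 12 aminoacyl-tRNA synthetases, 8 fell and 0 rose on resting in CD5lo cells (median -0.28, beside -0.01 for all genes), and 7 fell and 0 rose in CD5hi cells (median -0.21, beside 0.00). DESeq2 gave the same counts, and at an unadjusted p under 0.05 there were 0 higher in CD5lo and 1 in CD5hi cells. Cars was among them, at 41.4 CPM fresh and 20.5 rested in CD5lo cells (-1.02 ± 0.11, adjusted p = 2.2e-07). In Treg cells 9 of 12 were lower and 1 higher than in fresh CD5lo. Against fresh CD5hi, 7 were lower and 1 higher, beside 26.6% of all genes lower and 27.5% higher. These counts became 5 lower and 1 higher by DESeq2, and 2 and 2 by library totals alone. The endoplasmic reticulum list of 15 genes had 5 higher and 5 lower on resting in CD5lo cells. Xbp1, a factor of the unfolded protein response, rose from 36.9 to 54.9 CPM (0.57 ± 0.05, adjusted p = 4.0e-09) and Atf6 fell from 9.76 to 6.45 CPM (-0.60 ± 0.09, adjusted p = 2.0e-05).

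On the mTOR side, the sensing genes at the lysosome had 27 tested members, of which 6 rose and 8 fell on resting in CD5lo cells and 7 rose and 7 fell in CD5hi cells, near the shares of all genes (26.9% and 27.3% in CD5lo, 26.2% each way in CD5hi cells). Rragd, a Rag GTPase, rose from 5.35 to 21.0 CPM in CD5lo cells (1.98 ± 0.15, adjusted p = 3.6e-10) and stood at 36.0 CPM in Treg cells (2.75 ± 0.15, adjusted p = 6.0e-13). Fnip1, a folliculin partner, rose from 55.9 to 202 CPM in CD5lo cells (1.85 ± 0.06, adjusted p = 2.5e-16) but was 50.3 CPM in Treg cells. Castor1, an arginine sensor listed in the table as Gatsl3, fell from 14.5 to 6.44 CPM (-1.18 ± 0.14, adjusted p = 4.4e-07). Of the 5 genes of the TSC complex and Rheb, 3 rose on resting in CD5lo cells, led by Rhebl1 (6.59 to 15.1 CPM, 1.19 ± 0.10, adjusted p = 1.9e-09), and 0 fell by edgeR, by DESeq2 or at an unadjusted p under 0.05. Of 9 mTOR complex subunits, 4 rose and 3 fell, Rictor rising from 265 to 370 CPM (0.48 ± 0.08, adjusted p = 5.2e-05). Of 9 tested genes listed as outputs of the pathway, 4 rose and 1 fell on resting in CD5lo cells. The one that fell was Rps6kb2, an S6 kinase (-0.78 ± 0.11, adjusted p = 3.2e-06). The mRNA levels of these 9 genes are not a measure of the activity of mTOR complex 1.

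FOXO factors and p53 are known regulators of sestrin genes. Of 14 tested FOXO factors and FOXO-linked genes, 10 rose and 1 fell on resting in CD5lo cells (beside 26.9% and 27.3% of all genes; median 0.66, beside -0.01), and 9 rose and 1 fell in CD5hi cells (beside 26.2% each way; median 0.54, beside 0.00). The gene that fell was Foxo1 itself, from 537 to 235 CPM in CD5lo cells (-1.19 ± 0.07, adjusted p = 2.2e-11). Bcl2l11, the death gene BIM, rose from 66.7 to 187 CPM (1.49 ± 0.07, adjusted p = 1.1e-13) and Klf2, a quiescence factor, from 286 to 678 CPM (1.25 ± 0.08, adjusted p = 1.2e-11). Sesn3 fell in the same libraries. Of 10 tested p53-linked genes, 6 rose and 0 fell in CD5lo cells (median 0.47) and 7 rose and 0 fell in CD5hi cells (median 0.40), with the same counts by DESeq2 and 0 lower at an unadjusted p under 0.05. By library totals alone 5 rose and 1 fell in CD5lo cells. They included Bax (55.4 to 95.1 CPM in CD5lo, 0.78 ± 0.06, adjusted p = 3.1e-10) and Bbc3, the death gene PUMA (12.4 to 31.1 CPM, 1.32 ± 0.18, adjusted p = 3.1e-06). In Treg cells the p53-linked genes were 7 higher and 1 lower than in CD5lo, and the FOXO-linked genes 5 higher and 6 lower.

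Around Txnip, the list of MondoA, alpha-arrestins and thioredoxin had 10 tested genes. Arrdc4, another alpha-arrestin under MondoA, was 1.23 CPM in fresh CD5lo and 20.4 CPM in Treg cells (4.06 ± 0.34, adjusted p = 8.6e-10 by edgeR). Txnip was not called in that comparison. Against fresh CD5hi cells both were called higher in Treg cells: Arrdc4 by 4.31 ± 0.34 (adjusted p = 5.7e-10) and Txnip by 0.24 ± 0.08 (adjusted p = 0.022). The Txnip call was lost in some alternatives, as given above. Txn1, thioredoxin, rose on resting from 43.3 to 65.4 CPM in CD5lo cells (0.60 ± 0.08, adjusted p = 5.0e-06). Of 8 genes linked to the glucocorticoid receptor, which is known to raise Ddit4, 3 rose and 2 fell on resting in each CD5 group. Klf9 rose from 0.822 to 5.26 CPM in CD5lo cells (2.67 ± 0.20, adjusted p = 3.7e-10) and Sgk1 fell from 96.2 to 40.2 CPM (-1.26 ± 0.09, adjusted p = 1.2e-10). Fkbp5, which also fell, went from 61.1 to 45.9 CPM (-0.41 ± 0.09, adjusted p = 5.6e-04). Both of the 2 genes that fell in CD5lo cells are thus named, but only Klf9 of the 3 that rose. The named genes therefore do not show the balance of the list.

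**Figure D4:**
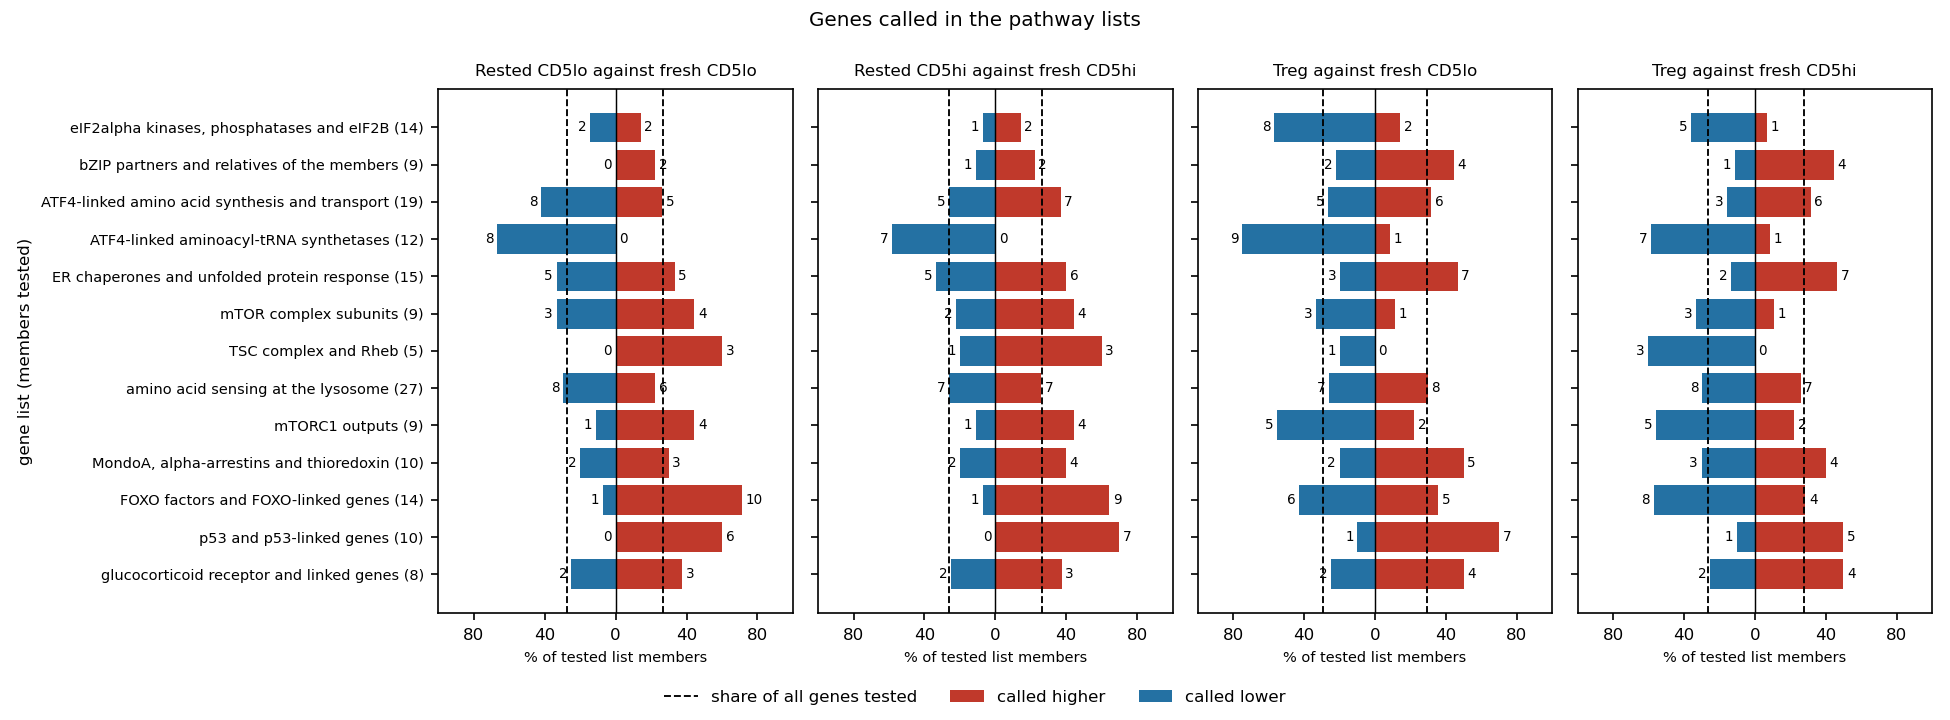
Percent of the tested genes of 13 lists called higher (right, red) or lower (left, blue) by edgeR in rested against fresh and Treg against fresh cells; numbers are gene counts and dashed lines mark the share of all tested genes called in that direction. The 12 aminoacyl-tRNA synthetases lean to lower in all 4 panels (8, 7, 9 and 7 genes), though only 2 are lower against CD5hi in the last panel by library totals alone, and the 14 FOXO-linked genes to higher on resting (10 and 9 genes).

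The genes most like each member were ranked by Pearson r of log2 CPM over the 20 libraries among about 10141 other genes with a mean of at least 1 CPM. The 20 points share their groups, so r mostly reflects the group means, and no p is given. Trib3 was most like Myo6, a motor protein gene (r = 0.989, 27.9 CPM in fresh CD5lo, 538 in rested CD5lo and 11.3 in Treg cells), then Dhx40 (0.987) and Fnip1 (0.987). Sesn1 was most like Gpr34 (r = 0.995, 2.84 CPM in fresh CD5lo, 105 in rested CD5lo and 31.1 in Treg cells), then Pim1 (0.988) and Mbnl3 (0.987). Ddit4 was most like the integrin gene Itgb2 (0.984), Zfpm1 (0.983) and Fmnl3 (0.979).

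Among the genes most like Sesn2 were Prkcd (0.950) and Hif1a (0.946), the last at 106 CPM in fresh CD5lo, 162 in rested CD5lo and 253 in Treg cells. Sesn3 was most like the phosphatase gene Ptpn6 (0.945), Xylt1 (0.939) and Lgmn (0.901). Atf4 was most like Eef1e1 (0.948), Psmd5 (0.942) and Hnrnpf (0.936), Ddit3 like Cdnf (0.957), Bnip1 (0.950) and Loh12cr1 (0.943), and Asns like Lrrk1 (0.904), Bmp7 (0.884) and Arc (0.882). Txnip had the weakest likeness of the tested members, with Msh6 (0.806) and Dstyk (0.778) among the genes most like it.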

How the data were processed

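Polyadenylated RNA of 20 libraries in 5 groups was sequenced as paired reads of 50 bases. The authors deposited whole-number read counts for 22068 gene symbols, and mm9, Subread with featureCounts 1.4.5, edgeR and TopHat2 2.0.11 are listed, without roles or order, in the submitters' processing notes. No source used here states the gene annotation or strand setting. A second deposited table gives a normalized signal for 10147 of the genes, which was proportional to the counts within each library and was used only as a check. Columns were mapped to samples by title.

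Tests on the deposited counts used edgeR 4.0.16 under R 4.3.3 (quasi-likelihood test, TMM scaling, filterByExpr with its minimum count of 10, 1 factor with 5 levels, 15 residual degrees of freedom) on 13309 genes, with Benjamini-Hochberg adjustment within each comparison and calls at an adjusted p under 0.05. The SE is the absolute log2 fold change over the square root of F, which is unreliable near 0. The test was tried on simulated counts first. DESeq2 1.42.0, other scalings and filters, left-out libraries and replicate blocks were run as alternatives. The members and all lists were chosen with earlier results of these data known. Of each list, named genes were taken from up to 3 per comparison with the largest changes among those called with at least 1 CPM, and some were left out for length.

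Replicate numbers paired CD5hi with CD5lo libraries within a state: deviations from the group means of same-numbered libraries correlated at 0.16 to 0.299 when fresh and 0.189 to 0.517 when rested, above those of other numbers in 4 of 4 libraries each. They did not pair fresh with rested or Treg libraries (lowest correlation -0.113). Whether replicates are separate animals is not stated beyond the word biological, so p-values measure the spread between these libraries. Promoter letters are from RefSeq, GRCm38.p6, matched by symbol for all 10 members (11 windows). A few genes that the rules would name are not reported here.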

Additional observations from a re-analysis of the deposited data

Results flagged for a closer look

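Sesn1 in Treg replicate 4, at 272 CPM, stood apart from the other 3 Treg libraries (241 to 246 CPM) by more than the range of 4 values usually allows by Dixon's test at the 95% level. It was the only such value among 45 combinations of member and group examined, and chance gives about 1 in 20. It remained below every rested library (293 to 353 CPM).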

How the results depend on the processing

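No called member changed direction under any alternative. Over members and alternatives, 1087 values kept their side of the threshold and direction, 23 lost a call, 11 gained one and 31 were uncalled values that changed sign. With the replicate block within states, genes called went from 1524 to 2396 for fresh CD5hi against CD5lo, from 1092 to 1961 for rested CD5hi against CD5lo and from 60 to 247 for the interaction, and members called when rested from 1 to 4. The block across groups called 2 members when rested. These blocks changed no other member's call. DESeq2 called 2 members when rested and 130 interaction genes. With only the groups compared, 495 genes were called for rested CD5hi against CD5lo, and with rested replicates 3 and 4 only, 639. With rested replicates 1 and 2 only, 5 members were called for rested against fresh CD5lo, where all libraries gave 8. Leaving out 1 library gave 1 to 2 members for rested CD5hi against CD5lo and 36 to 90 genes for the interaction (36 without fresh CD5hi replicate 2, and 39 without rested CD5hi replicate 1, fresh CD5lo replicate 1 or fresh CD5lo replicate 4). The cause of these shifts was not tested. Where libraries were left out, the number of samples was also smaller, and its part was not tested either. Library totals as the only scaling was chosen after seeing the data. Depth limits Asns and Chac1 only: all other members had means of at least 3.43 CPM.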
